A study of Saccharomyces cerevisiae with 11 samples.

Results

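Gene expression was compared between 2 libraries of budding yeast that carried the EM shuffle construct of Abf1 and 2 libraries that carried wild-type Abf1 (WT Abf1), out of 11 RNA libraries in all. In every library the chromosomal Abf1 carried an FRB tag and was drawn out of the nucleus with rapamycin at 8 µg/ml (the anchor-away technique), so that the Abf1 encoded on a pRS315 plasmid was the form left in place. In EM shuffle the order of residues in the essential motif of the second disordered region, IDR2, was scrambled. The construct lacks the first disordered region, IDR1, and its IDR2 is shortened at the C-terminal end. Per the methods of the study it carries an added nuclear localization signal and a Flag tag. WT Abf1 was full length. The lack of IDR1, the shortened IDR2, any difference in signal or tag and the shuffled motif cannot be told apart in this comparison. EM shuffle replicates 1 and 2 were treated for 1.25 h. WT Abf1 replicate 1 was treated for 1 h and came from another batch, and WT Abf1 replicate 2 was treated for 1.25 h. Batch, time and replicate therefore cannot be told apart within WT Abf1. The 3 libraries with an empty plasmid (no Abf1, 1.25 h) served as a second comparison. The other 4 libraries carried a pair of further constructs, LS15 and NCS506, and are used here only for scaling, for the shared estimate of the spread and as further libraries to set values against. All cultures were grown to log phase in medium without leucine, and the replicates came from separate transformed clones of 1 parent strain, ABF1-aa-V5 clone A9.

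Abf1 is an essential general regulatory factor, a DNA-binding protein that sits at many yeast promoters, keeps nucleosomes away from its sites and helps to position those beside them. Its sites stand in front of genes of many kinds, among them genes for ribosomal proteins. The DNA-binding domain and IDR2 are separate stretches of the protein, and the essential motif lies in IDR2.

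The deposited table held counts for 6834 features. The total was 2048816 counts in EM shuffle replicate 1 and 1818178 in replicate 2, against 1422833 in WT Abf1 replicate 1 and 1359428 in replicate 2. Levels are given in CPM, read counts scaled to a common library size with TMM, and differences as log2 fold changes of EM shuffle over WT Abf1 with their standard error (SE). A feature was called when the adjusted p of edgeR's quasi-likelihood test (Benjamini-Hochberg) was under 0.05. Of the 6834 features, 5399 had at least 10 counts in at least 2 of the 4 libraries and were tested.

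The EM shuffle libraries each stood apart from the other libraries over 1 whole chromosome. In EM shuffle replicate 2 the 249 genes of chromosome XI that averaged 50 or more counts had a median difference of 0.87 (log2 CPM) from the WT Abf1 mean, a 1.83-fold higher level. EM shuffle replicate 1 was at 0.02 there, and the other 9 libraries lay between −0.04 and 0.07. Of these 249 genes, 223 (89.6%) were above both WT Abf1 libraries in EM shuffle replicate 2, whereas on the other 15 nuclear chromosomes the share of such genes was 19.4% to 39.4%. The shift ran from end to end. When the chromosome was divided into 10 stretches of 24 or 25 genes, the medians lay between 0.76 and 1.05 in replicate 2 and between −0.16 and 0.22 in replicate 1.

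EM shuffle replicate 1 showed a smaller shift over chromosome VIII. The median over 195 genes was 0.49, a 1.41-fold higher level, and 163 of the genes (83.6%) were above both WT Abf1 libraries. EM shuffle replicate 2 was at −0.04 on chromosome VIII, and the other 9 libraries lay between −0.08 and 0.02. The 10 stretches of chromosome VIII had medians between 0.29 and 0.66 in replicate 1 and between −0.30 and 0.18 in replicate 2. Against the WT Abf1 libraries taken singly, the shift was 0.51 and 0.46 on chromosome VIII (replicate 1) and 0.83 and 0.93 on chromosome XI (replicate 2). All other nuclear chromosomes had medians between −0.05 and 0.08 in replicate 1 and between −0.13 and 0.02 in replicate 2. Chromosome XI holds ABF1 itself. DNA of these clones was not analysed here, and the source of both shifts was not tested. In bulk RNA a shift in all cells and a larger shift in part of the cells cannot be told apart.

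**Figure D1:**
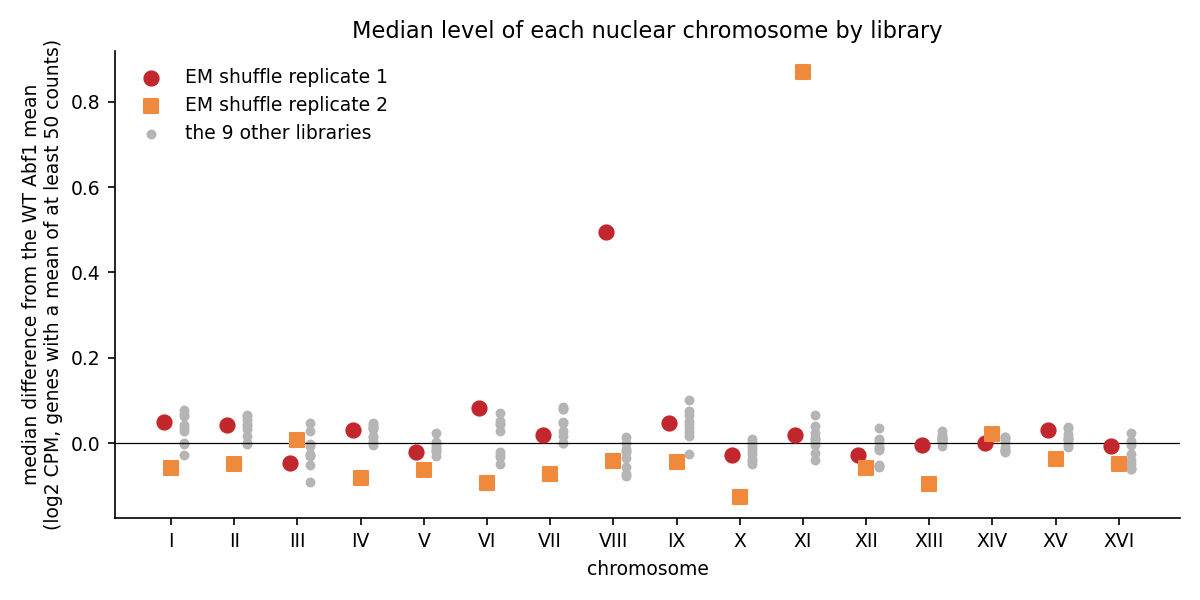
Median difference from the WT Abf1 mean (log2 CPM) for each of the 16 nuclear chromosomes, over genes averaging 50 or more counts, with EM shuffle replicate 1 as circles, replicate 2 as squares and the other 9 libraries as small grey points. Chromosome VIII lies at 0.49 in replicate 1 and chromosome XI at 0.87 in replicate 2, and no other chromosome leaves the range from −0.13 to 0.10 in any library.

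**Figure D2:**
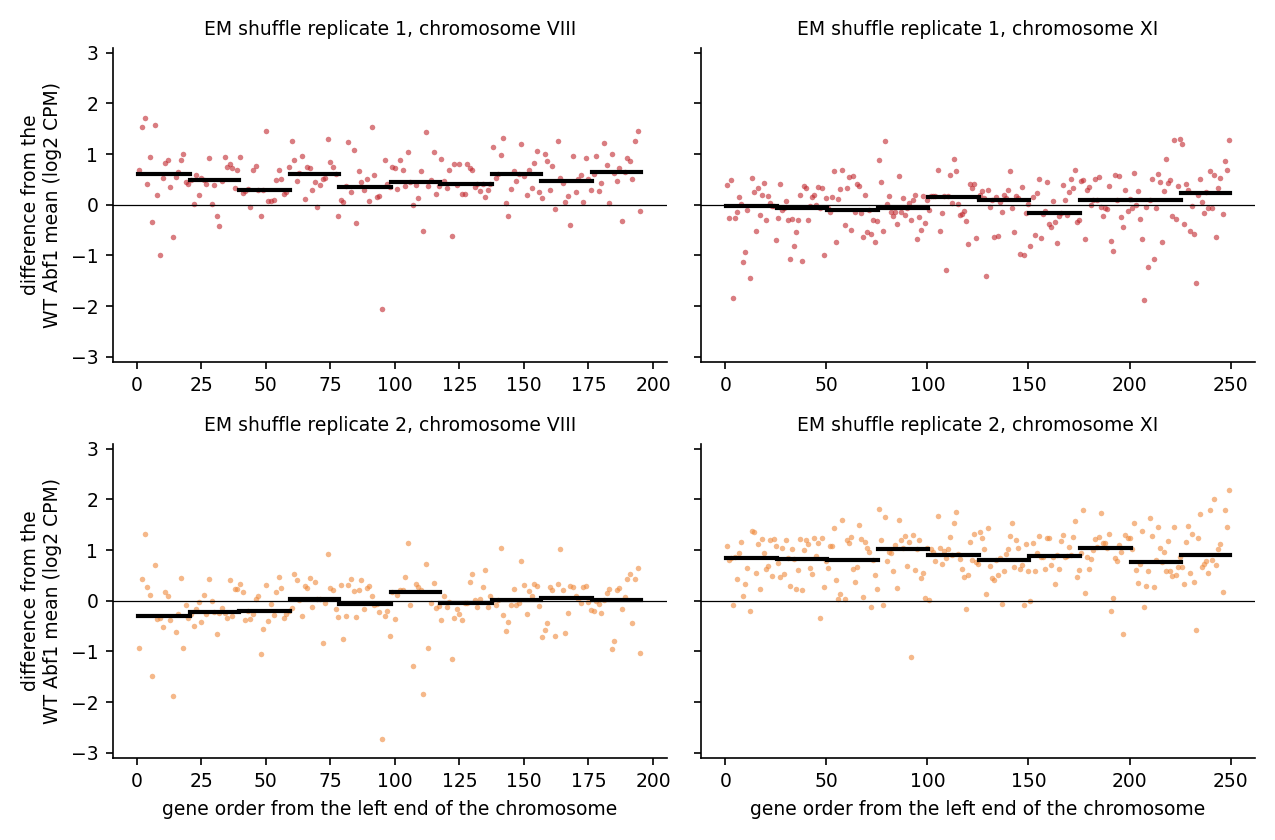
Difference of each gene from the WT Abf1 mean (log2 CPM, points limited to ±3 for display) against gene order along chromosomes VIII and XI, for EM shuffle replicate 1 (top) and replicate 2 (bottom). Black bars are the medians of 10 stretches, which lie between 0.29 and 0.66 for chromosome VIII in replicate 1 and between 0.76 and 1.05 for chromosome XI in replicate 2.

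The marker genes of mating type went against the strain named in the labels, BY4741, which is a MATa strain. The pheromone and receptor genes of alpha cells were well expressed in all 11 libraries, and those of a cells were low. MF(ALPHA)1, the alpha-factor gene, had 335 and 633 CPM with EM shuffle against 520.1 and 599 CPM with WT Abf1, and STE3, the a-factor receptor of alpha cells, had 177 and 334 CPM with EM shuffle against 260.5 and 182 CPM with WT Abf1. MFA1 and MFA2, the a-factor genes, did not exceed 4.42 CPM in any library, and STE2, the alpha-factor receptor of a cells, did not exceed 10.2 CPM. Over the 7 a-specific genes the summed level was 22.6 to 53.9 CPM, and over 4 alpha-specific genes it was 479 to 1263 CPM. As the pattern was shared by EM shuffle and WT Abf1, it does not separate the groups compared. ABF1 RNA was 261 and 402 CPM with EM shuffle against 314 and 364 CPM with WT Abf1, which gives no check of the labels because the tagged chromosomal gene stayed in place in every library. FPR1, which encodes the rapamycin-binding protein FKBP12, was between 0.44 and 9.05 CPM in all 11 libraries.

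Between EM shuffle and WT Abf1, 122 of the 5399 features were called (2.26%), 37 higher (0.685%) and 85 lower (1.57%). The called features comprised 114 protein-coding genes, 5 snoRNAs, 1 snRNA and 2 features that did not match the reference annotation. In all 122 both EM shuffle libraries lay on the same side of both WT Abf1 libraries, which was also the case for 42.4% of all features tested. The count depended on which libraries informed the spread. It was 1, ZRT1, in a fit of the 4 libraries alone (525 features at an unadjusted p under 0.05, against 998 in the fit of all 11 libraries), 7 without the no Abf1 libraries and 11 when the 1 h WT Abf1 library was left out, which leaves libraries of 1 batch. With EM shuffle replicate 1 or replicate 2 left out it was 367 or 346.

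Chromosomes VIII and XI took a large share of the higher calls. Of the 37 features called higher, 14 lay on these chromosomes (2.58% of the 543 tested there, against 0.474% of the 4856 tested elsewhere), 11 of them on chromosome XI. Of the 85 called lower, 1 lay on chromosome VIII and 0 on chromosome XI. When both chromosomes were left out of the normalization and the fit, 121 features were called, 31 higher and 90 lower.

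**Figure D3:**
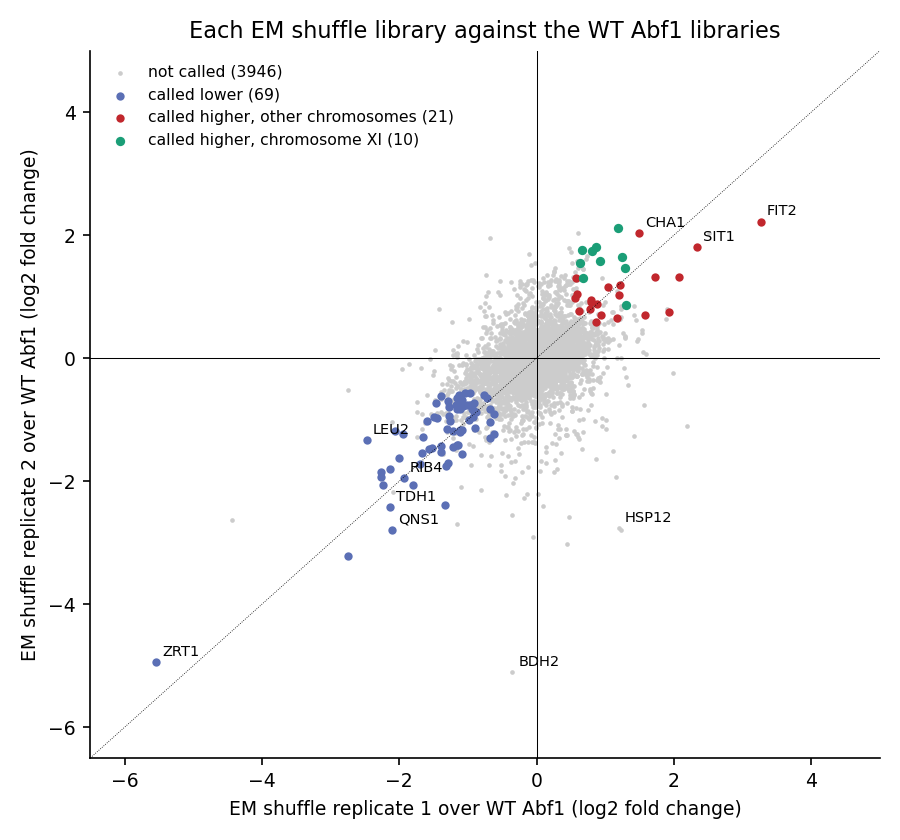
Log2 fold change of EM shuffle replicate 1 (x axis) and replicate 2 (y axis) over the WT Abf1 libraries for features averaging 50 or more counts, with the 69 called lower, the 31 called higher (10 of them on chromosome XI, drawn in green) and those not called in grey. All but 1 of the green points lie above the dotted line of equal values, and HSP12 and BDH2 lie far below it.

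Among the 12 largest falls of protein-coding genes, 4 had an Abf1 consensus match within 400 bp before the gene's annotated start, and among the 12 largest rises 1 did, CHA1. The restriction to protein-coding genes was not part of the rule for named genes as first written. With named non-coding genes kept, SNR14, SNR44, SNR49 and SNR9 took the places of SEC18, IOC3, DUG1 and TDH2, and 1 of the 12 largest falls, SSE2, had a match, although no sequence before non-coding genes was searched. The rises were the same genes. Over all 5885 matched protein-coding genes the share with a match was 16.0% (942 genes). These matches are shown because they are the candidate Abf1 sites of the genes with the largest changes. Coordinates are those of the match on the R64 assembly, and 12 bases of flank are printed on each side. Both strands were searched, and each sequence runs 5′ to 3′ on the strand of the match. Capitals mark the bases set by the Abf1 consensus, RTCRY and ACG, with free bases between them. In it R is A or G, and Y is C or T.
SSE2, chrII:576197-576209, minus strand, 201 bp upstream: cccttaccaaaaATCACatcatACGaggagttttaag
SSE2, chrII:576363-576375, plus strand, 367 bp upstream: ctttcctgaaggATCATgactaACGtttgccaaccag
SEC18, chrII:401012-401024, minus strand, 122 bp upstream: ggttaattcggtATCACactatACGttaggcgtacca
IOC3, chrVI:169751-169763, plus strand, 159 bp upstream: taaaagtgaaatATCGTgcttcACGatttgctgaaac
DUG1, chrVI:241553-241565, minus strand, 116 bp upstream: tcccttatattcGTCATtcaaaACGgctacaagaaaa
CHA1, chrIII:17140-17152, minus strand, 260 bp upstream: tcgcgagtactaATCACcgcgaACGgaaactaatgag
IOC3 held a further match on the other strand, 2 bases away (chrVI:169753-169765). A match describes these letters only and does not show binding.

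The largest fall among the named genes was in zinc uptake. ZRT1 (YGL255W, chromosome VII, 20978 to 22108), the high-affinity zinc transporter of the plasma membrane, had 12.4 and 18.8 CPM in the EM shuffle libraries, against 474 and 690.0 CPM in WT Abf1 (log2 fold change −5.23, SE 0.821, adjusted p = 0.0139). The libraries did not overlap, and the no Abf1 libraries lay between them at 83.4, 81.7 and 103 CPM. LS15 had 114 and 17.7 CPM and NCS506 117 and 18.3 CPM, so replicate 2 of each was near the EM shuffle level. ZPS1, which encodes a cell-surface protein induced when zinc is low, had 13.7 and 9.95 CPM in the EM shuffle libraries, against 146 and 42.5 CPM in WT Abf1 (log2 fold change −2.96, SE 0.588, adjusted p = 0.031). The WT Abf1 libraries themselves differed widely, and both EM shuffle libraries were below the lower one. So were no Abf1 (15.1, 11.3 and 12.4 CPM), LS15 (26.0 and 9.16 CPM) and NCS506 (24.2 and 8.84 CPM). Other genes of zinc supply were looked up after these values were seen. ZRT2, the low-affinity zinc transporter, was lower too, at 47.8 and 71.7 CPM with EM shuffle against 137 and 153 CPM with WT Abf1 (log2 fold change −1.28, SE 0.277, adjusted p = 0.0405). ZAP1, the transcription factor that activates these genes when zinc is scarce, had 30.5 and 33.5 CPM with EM shuffle against 47.7 and 72.4 CPM with WT Abf1 and did not pass (adjusted p = 0.0687). ADH4, an alcohol dehydrogenase gene activated by Zap1, had 41.2 and 37.7 CPM with EM shuffle against 78.7 and 42.5 CPM with WT Abf1 and did not pass either (adjusted p = 0.294). ZRT3 lies on chromosome XI and had 58.0 and 147 CPM with EM shuffle against 107 and 149 CPM with WT Abf1.

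RIB4, SSE2 and QNS1 fell in both EM shuffle libraries, with little spread between the WT Abf1 libraries. RIB4 (YOL143C, chromosome XV, 54595 to 55104), lumazine synthase of riboflavin synthesis, had 55.3 and 55.0 CPM in the EM shuffle libraries, against 206 and 218 CPM in WT Abf1 (log2 fold change −1.94, SE 0.177, adjusted p = 0.000704), and it was called in 15 of 17 alternative settings. SSE2 (YBR169C, chromosome II, 573915 to 575996), a nucleotide exchange factor of the Hsp70 chaperones and the bearer of a pair of consensus matches shown above, had 48.7 and 55.0 CPM in the EM shuffle libraries, against 241 and 219 CPM in WT Abf1 (log2 fold change −2.15, SE 0.248, adjusted p = 0.0041) and was also called in 15 of 17. QNS1 (YHR074W, chromosome VIII, 246193 to 248337), the glutamine-dependent NAD+ synthetase, had 36.3 and 22.5 CPM in the EM shuffle libraries, against 162 and 149.7 CPM in WT Abf1 (log2 fold change −2.39, SE 0.318, adjusted p = 0.00476). It lies on the chromosome that was higher as a whole in replicate 1. In the no Abf1 libraries QNS1 was at 18.1, 24.4 and 23.7 CPM and SSE2 at 52.3, 62.9 and 72.2 CPM, and neither passed the edgeR test between EM shuffle and no Abf1 (adjusted p = 0.406 and 0.447). RIB4 was lower with EM shuffle than in no Abf1, where it had 94.5, 97.6 and 88.7 CPM (log2 fold change −0.76, edgeR, adjusted p = 0.0105). LS15 and NCS506 were also below both WT Abf1 libraries for each of these genes. RIB4 had 100.5 and 70.8 CPM in LS15 and 63.8 and 62.5 CPM in NCS506. SSE2 had 68.9 and 68.4 CPM in LS15 and 98.4 and 53.6 CPM in NCS506. QNS1 had 29.4 and 68.4 CPM in LS15 and 43.8 and 33.6 CPM in NCS506. The falls were thus not particular to EM shuffle.

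Besides SSE2, the genes with consensus matches among the 12 largest falls of protein-coding genes were SEC18, IOC3 and DUG1. SEC18, the ATPase that takes SNARE complexes apart in vesicle fusion, had 42.5 and 41.9 CPM in the EM shuffle libraries, against 126 and 148 CPM in WT Abf1 (log2 fold change −1.70, SE 0.381, adjusted p = 0.0446). IOC3, a subunit of the Isw1a chromatin remodeller, had 21.7 and 23.6 CPM in the EM shuffle libraries, against 60.3 and 77.3 CPM in WT Abf1 (log2 fold change −1.61). DUG1, a Cys-Gly dipeptidase of glutathione breakdown, had 55.3 and 103 CPM in the EM shuffle libraries, against 229 and 235 CPM in WT Abf1 (log2 fold change −1.56), and the EM shuffle libraries differed from each other. In the no Abf1 libraries these genes were at 26.1, 21.6 and 17.5 CPM (SEC18), 24.1, 16.9 and 14.4 CPM (IOC3) and 35.2, 27.2 and 34.0 CPM (DUG1). DUG1 was higher with EM shuffle than with no Abf1 (log2 fold change 1.29, adjusted p = 0.0265), and SEC18 and IOC3 did not pass that test (adjusted p = 0.114 and 0.572). The next 3 called genes were below the count limit for named genes and were picked after their values were seen. DSS4, which stimulates nucleotide release from the secretory GTPase Sec4, had 0.442 and 1.05 CPM in the EM shuffle libraries, against 21.8 and 18.8 CPM in WT Abf1. BET2, a subunit of the enzyme that attaches lipid to Rab GTPases, had 9.29 and 5.76 CPM in the EM shuffle libraries, against 49.4 and 35.5 CPM in WT Abf1. PEP8, a retromer subunit, had 10.6 and 10.5 CPM in the EM shuffle libraries, against 44.4 and 36.9 CPM in WT Abf1. Each of them has a consensus match, and the EM shuffle levels were low in both libraries.

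Glycolytic isozymes were also among the falls. TDH1 (YJL052W, chromosome X), an isozyme of glyceraldehyde-3-phosphate dehydrogenase, had 150.0 and 124 CPM in the EM shuffle libraries, against 659 and 664 CPM in WT Abf1 (log2 fold change −2.27, SE 0.431, adjusted p = 0.029), whereas no Abf1 had 838, 913 and 959.8 CPM. TDH2 had 334 and 544 CPM in the EM shuffle libraries, against 1241 and 1327 CPM in WT Abf1 (log2 fold change −1.55, SE 0.258, adjusted p = 0.0206), and the no Abf1 libraries were as low, at 421, 325 and 323 CPM. ENO1, an enolase, had 786 and 659.7 CPM in the EM shuffle libraries, against 1959.9 and 1532 CPM in WT Abf1 (log2 fold change −1.27, SE 0.250, adjusted p = 0.0309). Of the 26 tested members of glycolysis and fermentation these 3 were called, all lower (beside 1.57% of all features), and the median of the list was −0.26 against 0.01 for all features. TDH3, the main isozyme, had 11405 and 14628 CPM with EM shuffle against 13532 and 13991 CPM with WT Abf1. TDH1, TDH2 and TDH3, and ENO1 and ENO2, are similar in sequence to differing degrees, and their counts are uncertain. EGO4 had 58.9 and 49.2 CPM in the EM shuffle libraries, against 291 and 122 CPM in WT Abf1 (log2 fold change −1.92), with WT Abf1 libraries that differed more from each other than the EM shuffle libraries did, and no Abf1 at 418, 456 and 451 CPM.

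LEU2 (YCL018W, chromosome III), the leucine synthesis gene carried by the plasmid, had 208 and 459 CPM in the EM shuffle libraries, against 1172 and 1133 CPM in WT Abf1 (log2 fold change −1.79, SE 0.303, adjusted p = 0.0223). The EM shuffle libraries also differed from each other, and the no Abf1 libraries were at 798, 758 and 743 CPM. LS15 had 238 and 342 CPM and NCS506 548 and 537 CPM, so the low level was not particular to EM shuffle. Of the other strain genes none was called. RPL13A, which bears the anchor and shares reads with RPL13B, had 218 and 245 CPM with EM shuffle against 281 and 299 CPM with WT Abf1. TOR1 had 356 and 278 CPM with EM shuffle against 329 and 308 CPM with WT Abf1, HIS3 67.3 and 79.6 CPM with EM shuffle against 74.5 and 43.9 CPM with WT Abf1 and MET17 249 and 108 CPM with EM shuffle against 118 and 137 CPM with WT Abf1.

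Genes of iron uptake led the rises. Of 23 tested members 5 were called, all higher (background 0.685%), and the median of the list was 0.76. By library the median difference from the WT Abf1 mean was 0.80 in replicate 1 and 0.56 in replicate 2, and the other libraries treated for 1.25 h were also above that mean. LS15 lay at 0.48 and 0.87, NCS506 at 0.52 and 0.60, no Abf1 at 0.30 to 0.46, and the WT Abf1 libraries at −0.25 (1 h) and 0.25 (1.25 h). FIT2 (YOR382W, chromosome XV, 1059530 to 1059990), a cell-wall protein that retains siderophore iron, had 131 and 63.3 CPM in the EM shuffle libraries, against 5.86 and 20.2 CPM in WT Abf1 (log2 fold change 2.85, SE 0.566, adjusted p = 0.031). SIT1 (YEL065W, chromosome V), a siderophore transporter, had 246 and 169.6 CPM in the EM shuffle libraries, against 26.0 and 68.9 CPM in WT Abf1 (log2 fold change 2.11, SE 0.445, adjusted p = 0.038). ARN1, a ferrichrome transporter, had 99.1 and 74.9 CPM in the EM shuffle libraries, against 24.3 and 34.8 CPM in WT Abf1 (log2 fold change 1.55) and lies on chromosome VIII. AFT1, the transcription factor that activates these genes when iron is low, had 149 and 161 CPM in the EM shuffle libraries, against 76.2 and 94.7 CPM in WT Abf1 (log2 fold change 0.86). FRE2, a ferric reductase on chromosome XI, had 13.7 and 21.5 CPM in the EM shuffle libraries, against 1.68 and 3.48 CPM in WT Abf1 (log2 fold change 2.68), few counts in WT Abf1. In all 5 called genes the 1 h WT Abf1 library was lower than the 1.25 h library. Against the 1.25 h library alone the log2 fold changes were all smaller. They were 2.27 (FIT2), 1.59 (SIT1), 1.32 (ARN1), 0.71 (AFT1) and 2.30 (FRE2). Without the members on chromosomes VIII and XI the median of the list was 0.68.

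Enzymes and factors of other kinds made up the remaining rises outside chromosomes VIII and XI. CHA1 (YCL064C, chromosome III, 15798 to 16880), the serine and threonine deaminase, had 73.5 and 107 CPM in the EM shuffle libraries, against 30.2 and 22.3 CPM in WT Abf1 (log2 fold change 1.79, SE 0.257, adjusted p = 0.00768), was called in 15 of 17 alternative settings and was the sole higher call with a consensus match. SNZ1, of vitamin B6 synthesis, had 544 and 241 CPM in the EM shuffle libraries, against 157 and 130.2 CPM in WT Abf1 (log2 fold change 1.46), and its divergent neighbour SNO1, looked up after the values were seen, had 47.3 and 30.4 CPM in the EM shuffle libraries, against 10.9 and 6.27 CPM in WT Abf1 (log2 fold change 2.20). SNZ1 and SNO1 were both higher in replicate 1 than in replicate 2. IRC13 had 68.1 and 40.3 CPM in the EM shuffle libraries, against 20.1 and 12.5 CPM in WT Abf1 (log2 fold change 1.75).

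Of the 12 largest rises 6 lay on chromosome XI, where the EM shuffle replicate 2 level was shifted as a whole. OAC1, the mitochondrial oxaloacetate carrier, had 364 and 479 CPM in the EM shuffle libraries, against 129 and 176 CPM in WT Abf1 (log2 fold change 1.46, SE 0.204, adjusted p = 0.00691). DRE2, which acts in the assembly of cytosolic iron-sulfur clusters, had 253 and 285 CPM in the EM shuffle libraries, against 95.5 and 111 CPM in WT Abf1 (log2 fold change 1.38, SE 0.172, adjusted p = 0.0041). Both were clearly above WT Abf1 in replicate 1, which had no shift there, by 1.26 and 1.28 on the log2 CPM scale. The difference in replicate 2 exceeded the chromosome XI median of that library by 0.79 for OAC1 and 0.59 for DRE2. NFT1 had 36.7 and 70.2 CPM in the EM shuffle libraries, against 9.21 and 22.3 CPM in WT Abf1. RRN3, an initiation factor of RNA polymerase I, had 96.5 and 185 CPM in the EM shuffle libraries, against 42.7 and 62.7 CPM in WT Abf1. BAS1, an activator of purine and histidine genes, had 92.5 and 176 CPM in the EM shuffle libraries, against 37.7 and 66.8 CPM in WT Abf1. NUP100, a nuclear pore protein, had 182 and 387 CPM in the EM shuffle libraries, against 113 and 116 CPM in WT Abf1. In these 4 genes replicate 2 was well above replicate 1. Its difference from WT Abf1 exceeded the chromosome XI median by 1.31 (NFT1), 0.94 (RRN3), 0.92 (BAS1) and 0.87 (NUP100). In replicate 1, without any such subtraction, the differences were 1.27 (NFT1), 0.88 (RRN3), 0.86 (BAS1) and 0.66 (NUP100).

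**Figure D4:**
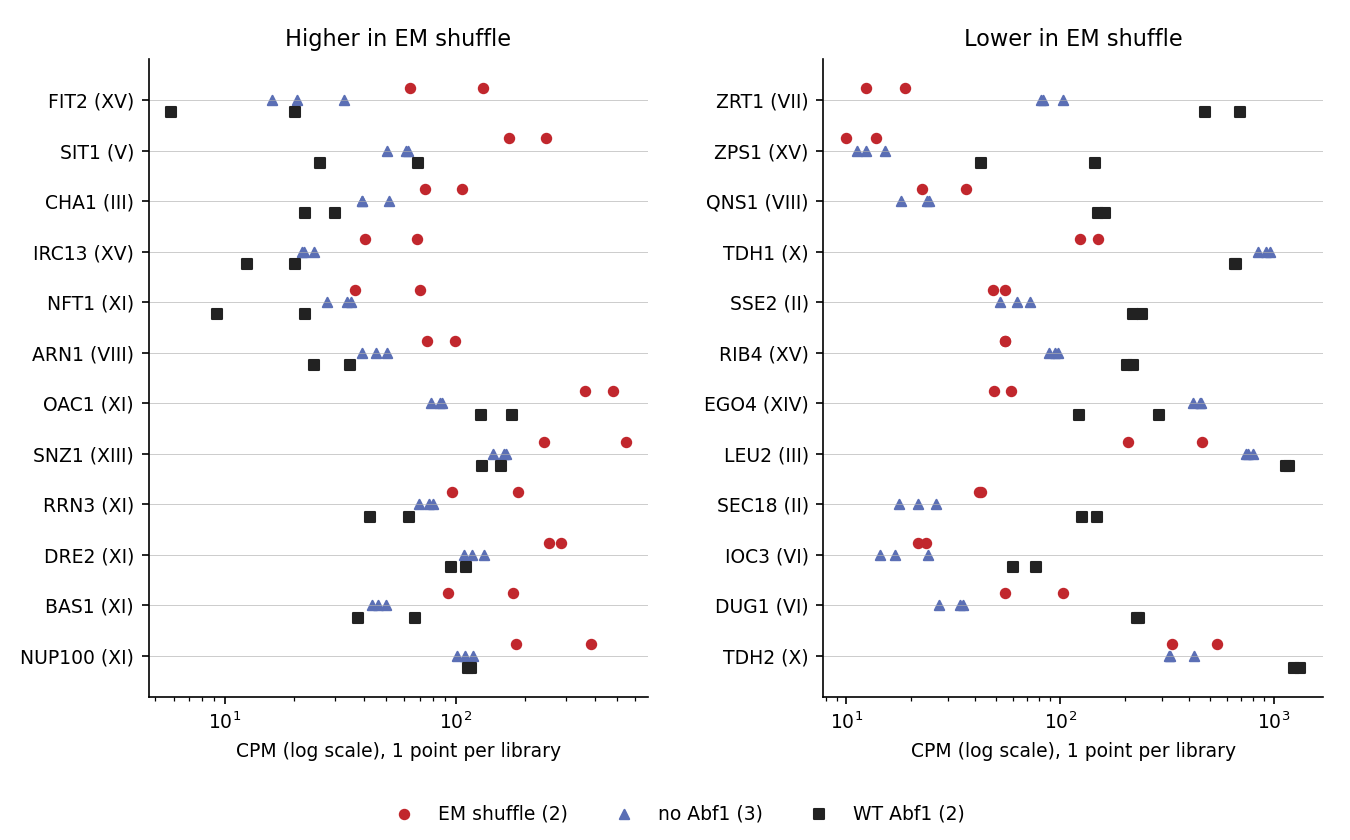
Level in CPM (log scale) of the 12 largest rises and 12 largest falls of protein-coding genes between EM shuffle and WT Abf1, with 1 point for each EM shuffle (circles), no Abf1 (triangles) and WT Abf1 (squares) library and the chromosome in parentheses. For every gene the EM shuffle circles lie on the same side of both WT Abf1 squares. No Abf1 lies near EM shuffle for QNS1, SSE2 and TDH2, and above WT Abf1 for TDH1 and EGO4.

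Part of the cytosolic ribosomal protein genes fell with EM shuffle. Of 137 tested members 12 were called lower and 0 higher, beside 1.57% and 0.685% of all features, and in 109 members both EM shuffle libraries were below both WT Abf1 libraries (22.1% of all features). The median log2 fold change was −0.57, with library medians of −0.87 in replicate 1 and −0.35 in replicate 2. No Abf1 lay at −0.77 to −0.61, LS15 at −0.85 and −0.72 and NCS506 at −0.75 and −0.56. The fall was thus not particular to EM shuffle. RPL21B had 131 and 184 CPM in the EM shuffle libraries, against 415 and 307 CPM in WT Abf1 (log2 fold change −1.19, SE 0.210, adjusted p = 0.025). RPS25B had 107 and 130.4 CPM with EM shuffle against 229 and 221 CPM with WT Abf1, RPS26B 219 and 253 CPM with EM shuffle against 457 and 401 CPM with WT Abf1 and RPS6B 130.1 and 215 CPM with EM shuffle against 343 and 372 CPM with WT Abf1, with log2 fold changes of −0.92, −0.86 and −1.06. Many of these genes have near-identical copies that can split reads. Of the 7 listed ribosomal protein genes known for Abf1 at their promoters 0 were called. An unadjusted p under 0.05 was seen in 4 of them, beside 998 of all 5399 features. RPL3 had 1855 and 2385 CPM with EM shuffle against 4017 and 3009.9 CPM with WT Abf1. RPL2B had 847 and 1325 CPM with EM shuffle against 1549 and 1555 CPM with WT Abf1.

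Lipid synthesis genes were partly lower. Of 35 genes of ergosterol and fatty acid synthesis 5 were called, all lower (beside 1.57% of all features), with a median of −0.21 (−0.50 in replicate 1 and −0.08 in replicate 2). ELO1, a fatty acid elongase, had 66.4 and 60.7 CPM in the EM shuffle libraries, against 157 and 192 CPM in WT Abf1 (log2 fold change −1.46, SE 0.175, adjusted p = 0.0041). OLE1, the fatty acid desaturase, had 302 and 439 CPM in the EM shuffle libraries, against 1006 and 699.7 CPM in WT Abf1 (log2 fold change −1.20). ERG13 and ERG20, of the mevalonate pathway to ergosterol, had 208 and 277 CPM with EM shuffle against 394 and 424 CPM with WT Abf1 and 179 and 188 CPM with EM shuffle against 296 and 294 CPM with WT Abf1. Of 21 phospholipid synthesis genes CHO2, a methyltransferase of phosphatidylcholine synthesis, and PSD1, phosphatidylserine decarboxylase, were called lower (beside the same 1.57%), with 311 and 353 CPM with EM shuffle against 579 and 590.4 CPM with WT Abf1 and 48.7 and 73.8 CPM with EM shuffle against 126 and 113 CPM with WT Abf1.

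In the amino acid and nucleotide lists single enzymes were called, beside 1.57% lower and 0.685% higher of all features. SAM2, an S-adenosylmethionine synthetase, had 84.1 and 87.4 CPM in the EM shuffle libraries, against 245 and 238 CPM in WT Abf1 (log2 fold change −1.49, SE 0.183, adjusted p = 0.0041), and it was the sole call among 23 sulfur amino acid genes, where MET6 had 1181 and 957 CPM with EM shuffle against 1797 and 1844 CPM with WT Abf1. ARO3, of aromatic amino acid synthesis, had 78.3 and 75.9 CPM in the EM shuffle libraries, against 191 and 149.7 CPM in WT Abf1 (log2 fold change −1.14) and was the sole call of 67, where LEU1 had 4419.5 and 2481 CPM with EM shuffle against 2250.5 and 2531 CPM with WT Abf1. URA4, the dihydroorotase, was the sole call of 10 pyrimidine genes, with 93.4 and 118 CPM in the EM shuffle libraries, against 243 and 212 CPM in WT Abf1 (log2 fold change −1.11), and URA2 had 1308 and 1717 CPM with EM shuffle against 1776 and 1815 CPM with WT Abf1. The 3 calls of the purine list were all higher (beside 0.685% of all features) and were not purine enzymes themselves. GCV1 had 311 and 305 CPM in the EM shuffle libraries, against 168 and 102 CPM in WT Abf1 (log2 fold change 1.20) and GCV3 176 and 292 CPM in the EM shuffle libraries, against 117 and 119 CPM in WT Abf1 (log2 fold change 0.98), both subunits of the glycine cleavage complex, and the third was BAS1. The median of the 29 purine genes was −0.11.

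In further lists single genes were called, beside 1.57% lower and 0.685% higher of all features. Of 27 genes under nitrogen catabolite repression MEP2, an ammonium permease, was called. It had 15.0 and 13.1 CPM in the EM shuffle libraries, against 36.0 and 35.5 CPM in WT Abf1 (log2 fold change −1.34). DIP5 had 435 and 305 CPM with EM shuffle against 434 and 244 CPM with WT Abf1. Of 11 retrograde response genes PDH1, of propionate breakdown, was called, with 39.4 and 22.0 CPM in the EM shuffle libraries, against 6.70 and 8.35 CPM in WT Abf1 (log2 fold change 2.02), and CIT2, a citrate synthase, had 1054 and 710.5 CPM with EM shuffle against 566 and 361 CPM with WT Abf1 without passing (adjusted p = 0.0887). PRM5 was the sole call of 16 pheromone response genes, with 137 and 121 CPM in the EM shuffle libraries, against 56.1 and 62.7 CPM in WT Abf1 (log2 fold change 1.12), and FIG2 had 116 and 119.9 CPM with EM shuffle against 72.0 and 85.6 CPM with WT Abf1. CLB1, a mitotic cyclin, was the sole call of 34 cell cycle genes, with 32.7 and 41.4 CPM in the EM shuffle libraries, against 62.0 and 77.3 CPM in WT Abf1 (log2 fold change −0.92), whereas CTS1 had 934 and 1137 CPM with EM shuffle against 692 and 719 CPM with WT Abf1.

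Among 31 heat shock proteins and chaperones SSE2 was called lower, and KAR2, the Hsp70 of the endoplasmic reticulum, and HSF1, the heat shock transcription factor, were called higher, beside 1.57% and 0.685% of all features. KAR2 had 1366 and 1152 CPM in the EM shuffle libraries, against 692 and 729.7 CPM in WT Abf1 (log2 fold change 0.82), and HSF1 had 173 and 144 CPM in the EM shuffle libraries, against 85.4 and 104 CPM in WT Abf1 (log2 fold change 0.74). The median of the list was 0.29, alike in both EM shuffle libraries (0.29 in replicate 1 and 0.25 in replicate 2), and no Abf1 lay at 0.54 to 0.65. COX15, of heme A synthesis, was the sole call of 53 nuclear genes of oxidative phosphorylation, with 50.0 and 41.9 CPM in the EM shuffle libraries, against 122 and 102 CPM in WT Abf1 (log2 fold change −1.28), and ATP2 had 703 and 727 CPM with EM shuffle against 1080.4 and 787 CPM with WT Abf1. Of 8 mitochondrially encoded genes OLI1, a subunit of ATP synthase, was called, with 490.3 and 480.1 CPM in the EM shuffle libraries, against 1854 and 728 CPM in WT Abf1 (log2 fold change −1.41). The 1 h WT Abf1 library was higher than the 1.25 h library over these genes, with median differences of 0.65 and −0.65 from their mean, and against the 1.25 h library alone OLI1 was not called (−0.59, edgeR, adjusted p = 0.254). COX1 had 619.9 and 519.9 CPM with EM shuffle against 1034 and 379 CPM with WT Abf1.

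Of 63 snoRNAs 5 were called lower and 0 higher, beside 1.57% and 0.685% of all features, and their median was −0.76 (log2 fold change). They also set the WT Abf1 libraries apart from each other, with median differences of 0.71 (1 h) and −0.71 (1.25 h) from their mean, beside −0.77 and −0.54 in the EM shuffle libraries. The EM shuffle libraries lay near the 1.25 h library. SNR44 had 113 and 150.3 CPM in the EM shuffle libraries, against 864 (1 h) and 222 CPM (1.25 h) in WT Abf1 (log2 fold change −2.04, SE 0.457, adjusted p = 0.0446), and SNR49 and SNR9 had log2 fold changes of −1.97 and −1.81. The spliceosomal U4 snRNA, SNR14, had 99.1 and 125 CPM in the EM shuffle libraries, against 703 (1 h) and 256 CPM (1.25 h) in WT Abf1 (log2 fold change −2.09, SE 0.366, adjusted p = 0.025). In these genes too the 1 h library was well above the 1.25 h library.

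Several lists had 0 calls by edgeR but library medians that differed between the EM shuffle replicates. At an unadjusted p under 0.05 there were 4 of 30 stress genes, 1 of 20 trehalose and glycogen genes and 2 of 80 ribosome biogenesis factors. Over all features there were 998 of 5399. Environmental stress and stationary-phase genes (30 tested) were at −0.03 in replicate 1 and −1.18 in replicate 2, whereas no Abf1 lay at 1.34 to 1.60. Trehalose and glycogen genes (20) were at 0.14 in replicate 1 and −0.76 in replicate 2, and no Abf1 at 0.78 to 0.95. Ribosome biogenesis factors (80) went the other way, with −0.22 in replicate 1 and 0.42 in replicate 2, and no Abf1 at −0.66 to −0.47. The WT Abf1 libraries lay at 0.32 and −0.32 for the stress genes, at 0.19 and −0.19 for trehalose and glycogen and at −0.26 and 0.26 for ribosome biogenesis. The most abundant members show the same split. YGP1, a stress-induced secreted glycoprotein, had 887 and 194 CPM with EM shuffle against 1173 and 1109 CPM with WT Abf1, ALD4 1012 and 285 CPM with EM shuffle against 833 and 514 CPM with WT Abf1, TSL1 1993 and 803 CPM with EM shuffle against 1727 and 1067 CPM with WT Abf1 and TPS2 1354 and 824 CPM with EM shuffle against 1987 and 1165 CPM with WT Abf1. RRP5 had 442 and 775 CPM with EM shuffle against 683 and 884 CPM with WT Abf1 and UTP20 611 and 811 CPM with EM shuffle against 504 and 723 CPM with WT Abf1. Without the members on chromosomes VIII and XI the medians in replicates 1 and 2 were −0.03 and −1.20 for the stress genes and −0.24 and 0.41 for ribosome biogenesis.

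For 9 lists of other functions with 0 calls by edgeR, 1 to 11 members had an unadjusted p under 0.05, beside 998 of all 5399 features. Their median log2 fold changes lay between −0.39 (aminoacyl-tRNA synthetases) and 0.18 (proteasome subunits), with RNA polymerase subunits at 0.08, hexose transporters at 0.04, the TCA and glyoxylate cycle at −0.05, mitochondrial ribosomal proteins at −0.00076, phosphate genes at −0.13 and histone genes and general regulatory factors both at 0.17. Of the 18 synthetases 6 had such an unadjusted p, as did 9 of 27 genes of the TCA and glyoxylate cycle. In 13 of the 18 synthetases both EM shuffle libraries were below both WT Abf1 libraries (22.1% of all features). Their medians were −0.58 and −0.23 in EM shuffle, −0.95 and −0.52 in LS15 and −0.66 and −0.47 in NCS506. No Abf1 lay at −0.89 to −0.76. VAS1 had 935 and 1170.1 CPM with EM shuffle against 1148 and 1273 CPM with WT Abf1. ILS1 had 1068 and 1107 CPM with EM shuffle against 1183 and 1187 CPM with WT Abf1. RPN2 had 791 and 669.6 CPM with EM shuffle against 657 and 611 CPM with WT Abf1 and RPN5 408 and 283 CPM with EM shuffle against 276 and 237 CPM with WT Abf1. RPO21, the largest subunit of RNA polymerase II, had 1032 and 1047 CPM with EM shuffle against 1026 and 1099 CPM with WT Abf1, and RPA190, that of RNA polymerase I, had 687 and 993 CPM with EM shuffle against 686 and 934 CPM with WT Abf1. HXT2 had 2057 and 785 CPM with EM shuffle against 1426 and 934 CPM with WT Abf1 and HXT3 1571 and 1452 CPM with EM shuffle against 1253 and 1491 CPM with WT Abf1. PYC1 had 812 and 433 CPM with EM shuffle against 690.1 and 457 CPM with WT Abf1, MRPS12 80.1 and 70.7 CPM with EM shuffle against 86.3 and 69.6 CPM with WT Abf1 and RSM7 57.5 and 46.1 CPM with EM shuffle against 63.7 and 66.8 CPM with WT Abf1. PHO91 had 218 and 237 CPM with EM shuffle against 188 and 247 CPM with WT Abf1 and PHO90 154 and 153 CPM with EM shuffle against 158 and 178 CPM with WT Abf1. HHT2 had 417 and 418 CPM with EM shuffle against 424 and 346 CPM with WT Abf1, HTB1 289.8 and 310.5 CPM with EM shuffle against 312 and 339.8 CPM with WT Abf1 and SFP1 168 and 119 CPM with EM shuffle against 124 and 113 CPM with WT Abf1.

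**Figure D5:**
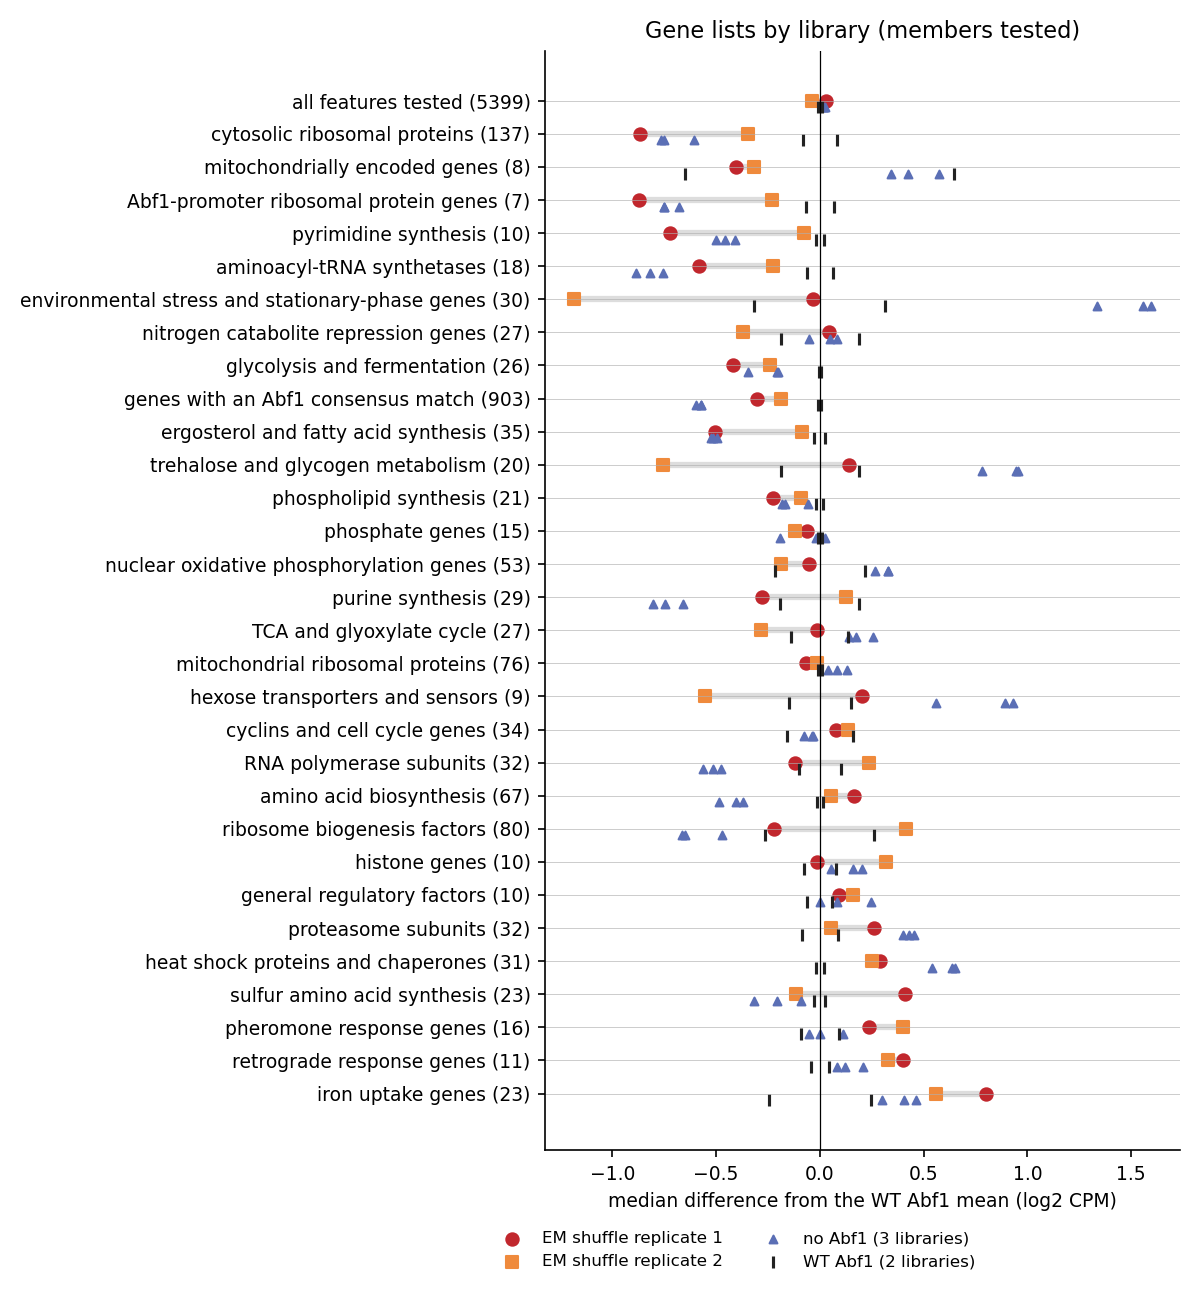
Median difference from the WT Abf1 mean (log2 CPM) of each gene list in EM shuffle replicate 1 (circles), replicate 2 (squares), the 3 no Abf1 libraries (triangles) and the 2 WT Abf1 libraries (bars), with the number of members tested. The EM shuffle replicates lie close together for iron uptake and chaperones and far apart for stress genes (−0.03 and −1.18) and for trehalose and glycogen (0.14 and −0.76).

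The EM shuffle replicates differed from each other by a root mean square of 0.561 on the log2 CPM scale over 4046 features averaging 50 or more counts, and 279 features differed by more than 2-fold. The WT Abf1 libraries differed by 0.443, with 151 such features, and pairs of no Abf1 libraries by 0.263 to 0.281. Of the 154 features more than 2-fold higher in replicate 1, 31 lay on chromosome VIII, and of the 125 higher in replicate 2, 91 lay on chromosome XI. The largest differences in favour of replicate 1 were in BDH2 and HSP12. HSP12, a small membrane-bound heat shock protein, had 880.1 CPM in replicate 1 and 56.5 CPM in replicate 2, against 415 and 354 CPM in WT Abf1 and 2579.7, 3196 and 3001 CPM in no Abf1. BDH2 had 368 CPM in replicate 1 and 13.6 CPM in replicate 2, against 632 and 313 CPM in WT Abf1. SPG4, RCK1, PHM7, FMP45, XBP1 and DDR2 were the other 6, with differences of 2.57 (DDR2) to 3.64 (SPG4) on the log2 scale. In all 8 genes replicate 2 was below both WT Abf1 libraries. Replicate 1 was above both in HSP12, SPG4, RCK1, XBP1 and DDR2 and between them in BDH2, PHM7 and FMP45. The no Abf1 libraries were above replicate 1 in all but RCK1. The largest differences in favour of replicate 2 were in EEB1 (chromosome XVI, −2.58, replicate 1 minus replicate 2), MF(ALPHA)2 (chromosome VII, −2.05) and 6 genes of chromosome XI, DHR2, TRM2, TIF1, DBP7, DPH2 and LTV1 (−2.12 to −1.76). TIF1, which encodes the translation initiation factor eIF4A and has a near-identical copy in TIF2, had 115 CPM in replicate 1 and 408 CPM in replicate 2, against 257 and 286 CPM in WT Abf1 and 23.1, 22.5 and 21.6 CPM in no Abf1. With 2 libraries a group none of these differences was tested.

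Genes with an Abf1 consensus match had a lower median with EM shuffle. Of the 942 genes with a match in the 400 bp upstream, 903 were tested, of which 1 was called higher and 31 lower (3.43%, beside 1.57% of all features). Their median log2 fold change was −0.25, against 0.01 for all features and 0.05 for protein-coding genes without a match. By library the median was −0.30 in replicate 1 and −0.18 in replicate 2. No Abf1 lay at −0.60 to −0.57, LS15 at −0.59 and −0.36 and NCS506 at −0.31 and −0.28. The lower median was thus not particular to EM shuffle. Of the 85 features called lower 36.5% had a match, beside 16.7% of all features tested. In 396 of the 903 both EM shuffle libraries were below both WT Abf1 libraries (22.1% of all features), and in 80 both were above (20.3% of all features). In the fit without chromosomes VIII and XI the median was −0.26. A match upstream of a gene can also belong to the divergent neighbour.

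Compared with no Abf1, EM shuffle was higher in 679 features (12.6%) and lower in 595 (11%) of 5399. As both comparisons share the EM shuffle libraries, their values are set side by side only. Of the 903 genes with a match, 291 were called higher and 50 lower, and their median was 0.40. Stress and stationary-phase genes had a median of −1.83, with 25 of 30 called lower and 0 higher, and trehalose and glycogen genes a median of −1.08, with 16 of 20 called lower. Ribosome biogenesis factors had a median of 0.79 (36 of 80 called higher, 0 lower) and amino acid synthesis genes one of 0.57 (37 of 67 higher, 1 lower). Cytosolic ribosomal protein genes differed less, with a median of 0.13 and 15 of 137 called higher. Chromosomes VIII and XI held 156 of the 679 higher calls and 23 of the 595 lower calls. These were 28.7% and 4.24% of the 543 features tested there, against 10.8% and 11.8% of the 4856 tested elsewhere. Without EM shuffle replicate 2 the total of 1274 calls was 519, without replicate 1 it was 1681, and without no Abf1 replicate 1, 2 or 3 it was 678, 545 or 498.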

How the data were processed

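Per the labels and the methods of the study, total RNA was purified (RNeasy, DNase I) and made into directional libraries (NEBNext Ultra II), and the authors used STAR and RSEM with sacCer3 (R64). Counts were deposited as whole numbers per feature, not normalized. A deposited table of TPM was computed by the authors. Its columns sum to 13.2% and 14.1% of the nominal TPM total in the EM shuffle libraries and to 8.55% and 8.79% in WT Abf1, so TPM served only as an alternative. Which tool wrote the counts, and whether strand was used, is not given in the sources used here, so overlapping, antisense and near-identical genes are uncertain. Intervals were not computed, and depth was 920044 to 2195476 counts over the 11 libraries, which limits genes with few counts.

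The test was that of edgeR 4.0.16, run under R 4.3.3. TMM factors and 1 quasi-likelihood fit used all 11 libraries with a coefficient per group (common biological coefficient of variation 0.170), on features with at least 10 counts in at least 2 of the 4 EM shuffle and WT Abf1 libraries. Log2 CPM used a prior count of 2. The study states no test for its RNA libraries. Per the labels the replicates were independent clones. Of 6834 features 6011 were matched by systematic name to the R64 reference, and 823 were not. Promoters, 400 bp upstream of the gene start, were searched on both strands for the Abf1 consensus. Alternatives used DESeq2 1.42.0, limma 3.58.1 (voom with quality weights, or log2(TPM + 1)), other filters and scaling, fewer libraries, a 250 bp window and a stricter consensus. Rescaled TPM and leaving out chromosomes VIII and XI were chosen after seeing the data. Scripts were tested on simulated data. Python 3.11.15, pandas 2.3.3, numpy 2.4.6 and matplotlib 3.10.9 were used for tables and plots.

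Named genes were the 12 largest rises and 12 largest falls among called standard-named protein-coding genes averaging 50 or more counts whose libraries did not overlap, up to 4 called members of each of 32 gene lists (or the most abundant members where fewer than 2 were called), the strain genes, and the 8 largest differences each way between the EM shuffle replicates. The rule fixed at the start named no gene type, and the restriction to protein-coding genes departs from it. The comparison, members and lists were chosen with earlier results of these data known. RPP1, MRP8, RPN4 and RPN14, which share a name pattern with a list but are not its subunits, were removed from the lists after their values were seen.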

Additional observations from a re-analysis of the deposited data

How the results depend on the processing

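The count of 122 features called against WT Abf1 (37 higher, 85 lower) was 196 with DESeq2 (53 higher, 143 lower), 10 with limma-voom and quality weights (3 and 7), 3270 with limma on log2(TPM + 1) (3249 and 21), 12 on rescaled TPM (6 and 6), 1 in a fit of the 2 groups alone (0 higher and 1 lower, ZRT1) and 7 without the no Abf1 libraries (1 and 6). On the TPM scales the median of all features was itself shifted by 0.60, or by 0.36 after rescaling. With single libraries left out it ranged from 11 to 367 (2 to 183 higher, 9 to 206 lower). The lowest value was without WT Abf1 replicate 1 (the 1 h library), and the count was 183 without WT Abf1 replicate 2. Of the 122, 117 were also called with the same sign by DESeq2 and 107 without chromosomes VIII and XI. Other filters, RLE scaling and protein-coding features alone gave 113 to 158.

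Against no Abf1 the count of 1274 was 4078 on log2(TPM + 1) and 569 on rescaled TPM, and 498 to 1681 with single libraries left out. With a replicate block among numbered libraries it was 863, against 1361 in the same libraries without the block. The numbers mark separate clones, and the deviations of same-numbered EM shuffle and no Abf1 libraries correlated at −0.22 (replicate 1) and −0.10 (replicate 2) over 4046 features. No paired analysis was possible against WT Abf1 because its libraries carry no replicate numbers.

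The median of −0.25 over genes with a consensus match lay between −0.32 and −0.20 in all count-based settings, and was −0.30 with the 250 bp window and with the stricter consensus. It was 0.49 on log2(TPM + 1) and 0.12 on rescaled TPM, which is −0.11 and −0.24 relative to the median of all features on those scales.

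Of the 50 called genes named above, 7 turned to a positive sign on log2(TPM + 1), RPS25B (0.064), RPS26B (0.13), ERG13 (0.23), ERG20 (0.34), CHO2 (0.19), PSD1 (0.073) and CLB1 (0.10), all under the shift of 0.60. Uncalled genes called higher on that scale after a negative value were MRPS12 (0.83), VAS1 (0.77), ILS1 (0.85), RPO21 (0.89), COX1 (0.91), PHO90 (0.62), HTB1 (0.91), ABF1 (0.85) and TOR1 (0.61). HSP12, SPG4, XBP1 and DDR2 were called lower by edgeR without EM shuffle replicate 1, opposite to their sign with both libraries. Their values with single libraries left out ranged from −2.76 to 1.20 (HSP12), −2.80 to 1.23 (SPG4), −1.26 to 1.42 (XBP1) and −1.51 to 1.11 (DDR2). Without the 1 h WT Abf1 library 42 of the 50 were no longer called, and in a fit of the 2 groups alone 49 were not, with no change of sign in either.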
